A study of Homo sapiens with 4 samples.

Results

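The genes described here make, carry or sense retinoic acid. They are 10 genes: the retinol and retinaldehyde enzymes DHRS9, DHRS3, RDH10 and RDH11, the retinaldehyde dehydrogenases ALDH1A1 and ALDH1A3, the binding protein CRABP2, and the receptors RARA, RARB and RARG. They were taken by symbol from the array's annotation, which gave 29 of the 54675 probe sets in the table. They are 10 of 19775 genes that have a probe set naming that gene alone. The genes were chosen by their known place in the pathway and by the differences between resistant and parental cells in these same arrays, such as that of DHRS9, so those differences are given as a description, without a test.

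Expression had been measured on 4 Affymetrix arrays. HT29 and Colo205 are established human colon cancer lines, and the arrays hold the HT29 parental line, its derivative HT29RC, the Colo205 parental line and its derivative Colo205RC. The derivatives had been kept in rising concentrations of PLX4720, an inhibitor of the kinase BRAF, until they were resistant. The resistant cells then spent 24 h without the drug before harvest, and all cells grew in medium with 10% serum. No treatment of the parental lines and no drug concentration is stated in the sources used here, and the series text calls the derivatives clones without saying how many were used. There is 1 array for each line and status, so no difference within a line has a replicate error. In such bulk RNA, a lower value from fewer expressing cells and one from less RNA per cell cannot be told apart.

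Retinoic acid is made from vitamin A in a pair of oxidation steps. Retinol is first turned into retinaldehyde, a step that runs in both directions and that is catalysed by retinol dehydrogenases and retinaldehyde reductases. Retinaldehyde dehydrogenases then oxidise retinaldehyde to retinoic acid, which does not run back, and CYP26 enzymes break retinoic acid down. Inside the cell CRABP2 carries retinoic acid to its receptors, which bind DNA with an RXR partner and switch on genes such as RARB and CYP26A1. In the gut, retinoic acid is known for its part in epithelial differentiation and in mucosal immunity.

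The DNA through which retinoic acid acts is shown first, because the receptors' best known targets serve as readouts below. The receptors bind pairs of a 6-base word repeated in the same orientation. The word searched for was AGGTCA. Its variant GGGTCA, in common use, was accepted too. So were AGTTCA and GGTTCA, which are the words of the RARB repeat itself. A match was a direct repeat of any of these words with 5 bases (NNNNN) between the copies, on either strand. The windows are RefSeq's 300-base stretches around 35116 transcript starts in GRCh38.p14, and 0.0883% of them hold such a repeat. One start of RARB and one of CYP26A1 are among them. In the 100 bases before each of these starts, capitals mark the repeated words:
RARB, chr3:25428163-25428262, plus strand: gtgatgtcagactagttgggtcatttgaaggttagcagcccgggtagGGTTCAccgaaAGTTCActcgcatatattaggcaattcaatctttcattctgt
CYP26A1, chr10:93073793-93073892, plus strand: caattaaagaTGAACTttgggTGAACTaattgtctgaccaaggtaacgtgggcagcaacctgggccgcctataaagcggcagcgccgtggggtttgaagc

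The 3 members with the widest differences in HT29 are shown for comparison, each with the 100 bases before the gene's own start. Capitals mark the motifs TATAAA in DHRS9, CCAAT and GGGCGG (read on either strand as CCGCCC) in ALDH1A3, and CCAAT in ALDH1A1:
DHRS9, chr2:169066977-169067076, plus strand: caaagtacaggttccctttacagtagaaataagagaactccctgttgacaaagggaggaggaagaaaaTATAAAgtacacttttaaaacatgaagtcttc
ALDH1A3, chr15:100879731-100879830, plus strand: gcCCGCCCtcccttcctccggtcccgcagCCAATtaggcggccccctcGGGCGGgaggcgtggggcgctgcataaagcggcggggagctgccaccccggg
ALDH1A1, chr9:72953054-72953153, minus strand: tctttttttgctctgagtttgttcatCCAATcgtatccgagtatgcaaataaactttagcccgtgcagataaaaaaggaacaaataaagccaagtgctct

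Over all windows, 11.5% hold TATAAA, 34.6% CCAAT and 45% GGGCGG, so these are common words. The searched repeat was found in 0 of the 4 windows of DHRS9 and in 0 of the 1 window each of ALDH1A3 and ALDH1A1. It was found in 1 of the 4 windows of RARB, whose own words were among those searched, so nothing is read from that match. Repeats of the same words with a spacing of 1 or 2 bases were found in no window of these 4 genes or of CYP26A1, and they occur in 0.131% and 0.0399% of all windows. Single words are frequent, at 38.6% of all windows. Promoter windows were matched for 9 of the 10 members. Windows on chromosome 8, where RDH10 lies, were left out of the members' lookup, so RDH10 was not searched. A match describes these letters and does not show that a receptor binds there.

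The log2 medians of the 4 arrays differed by at most 0.05. The 24 probe sets for spiked poly-A RNA had a median difference between resistant and parental arrays of -0.43 in HT29 and -0.72 in Colo205. The 3' minus 5' gap of beta-actin, a measure of RNA quality, was 2.77 and 2.40 in parental and resistant HT29 and 2.88 and 3.13 in parental and resistant Colo205, and that of GAPDH was 0.53, 0.44, 0.52 and 0.66 in the same order. Of 8 colon epithelium markers, all passed the filter on low values described next. EPCAM lay between 13.75 and 13.96 on the 4 arrays and KRT18 between 14.32 and 14.82. KRT20 was read at 12.69 and 14.28 in parental and resistant HT29 but at 4.79 and 3.95 in Colo205, below that filter. CDX2, an intestinal homeobox gene, was read at 5.17 and 6.52 in HT29 and at 5.66 and 6.11 in Colo205. Both of its parental readings lay below that filter. The 8 markers had a median difference of 0.41 in HT29 and of -0.10 in Colo205. KRT20 and CDX2 were 2-fold or more higher in HT29, beside 3.42% of all genes past that filter. In Colo205 0 of the 8 were, beside 0.908%. Of 6 fibroblast markers, the mean log2 level over the list went from 5.65 to 5.91 between parental and resistant HT29 and from 5.40 to 5.45 between the Colo205 arrays. LUM was the 1 fibroblast marker 2-fold or more different, at 5.14 and 6.80 in HT29, with the parental reading below that filter. The 4 endothelial markers had mean levels of 4.98 and 5.28 in HT29 and 4.71 and 4.89 in Colo205, and the 4 measured leukocyte markers 7.29, 7.01, 6.96 and 6.97, of which LYZ, a lysozyme gene that gut epithelium also expresses, lay between 13.46 and 14.03 and PTPRC and CD3E lay below the filter on every array. CD14 was read at 6.74 and 5.96 in parental and resistant HT29, a difference of -0.78. Of the endothelial markers, CDH5 and KDR lay below the filter, and PECAM1 was read at 6.29 and 7.18 in HT29, a difference of 0.89. Over the 3 probe sets of PECAM1 past the filter, the HT29 difference ran from -0.09 to 0.89. VWF differed by 0.19 in HT29 and by 0.51 in Colo205. The part of RNA quality and of all these markers in the results below was not tested.

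Values are log2 expression, on which a difference of 1 is 2-fold. Readings under 5.73, the median of the whole table, were not shown to lie above background, and a gene passed the filter if its highest array reached that value. Of several probe sets, the one with the highest mean stands for its gene. By this rule 9 of the 10 members passed, RARB being the exception, against 13651 of all 19775 genes. Of the members' 29 probe sets, 18 passed, and the other 11 lay between 2.90 and 5.51 on every array. As a measure of scatter between probe sets, the differences of probe sets of one gene had a pooled SD of 0.30 in each line over 6615 genes. These probe sets share the same arrays, so this SD leaves out differences between arrays and between cultures. Levels of different probe sets are not comparable with each other, so every comparison below is within a probe set.

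**Figure D1:**
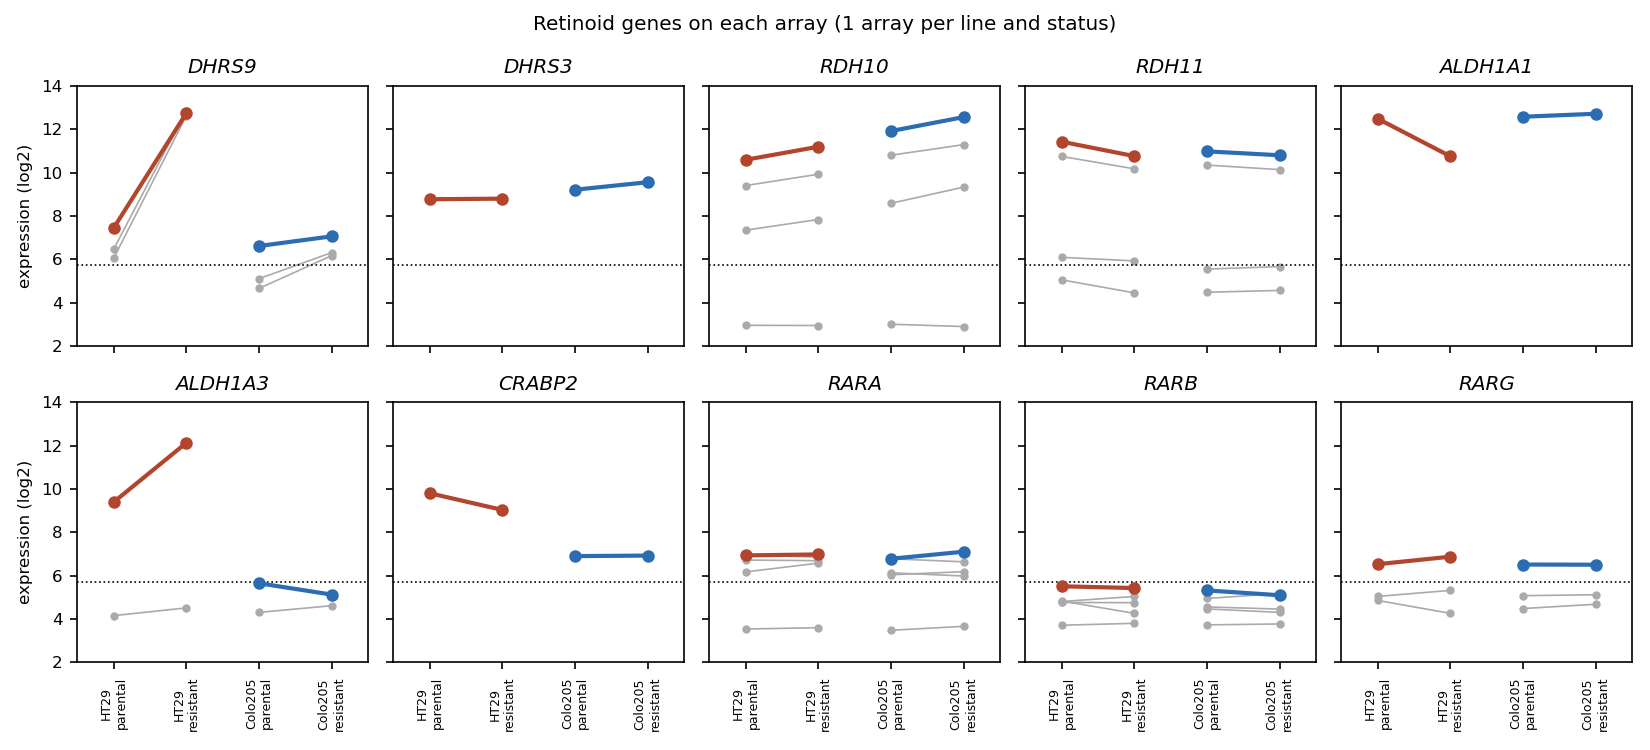
Log2 expression of the 10 retinoid genes on each of the 4 arrays (vertical axis, log2), with HT29 in red and Colo205 in blue. Thick lines join the parental and resistant array for the probe set that represents the gene, thin grey lines are its other probe sets, and the dotted line is the filter at 5.73. DHRS9 and ALDH1A3 stand highest in resistant HT29, at 12.75 and 12.12, and the lines of RARB lie below the filter throughout.

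In resistant HT29, 3 of the 9 members past the filter differed 2-fold or more from the parent, and in resistant Colo205 0 of the 9 did. DHRS9 and ALDH1A3 were higher, beside 3.42% of all 13651 genes that were higher by that much, and ALDH1A1 was lower, beside 1.72%. Taken in either direction the share of all genes was 5.14%. In Colo205 the shares were 0.908% higher, 2.51% lower and 3.42% in either direction. The members' median difference was 0.05 in HT29 and 0.14 in Colo205, beside -0.01 and -0.02 over all genes. Since the genes were picked with this contrast known, nothing is read from these counts. Across both lines together, limma with the cell line as a block called 0 of 13651 genes at an adjusted p under 0.05, while 928 genes, or 6.8%, had an unadjusted p under 0.05.

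DHRS9, a short-chain dehydrogenase that oxidises retinol to retinaldehyde and also acts on steroids, had the widest difference between a derivative and its parent. Probe set 219799_s_at was read at 7.45 in parental HT29, 12.75 in resistant HT29, 6.62 in parental Colo205 and 7.06 in resistant Colo205. Resistant HT29 thus stood far above the other 3 arrays, which lay within 0.83 of one another. The difference in HT29 was 5.30, or 39.3-fold, which ranked 2 from the top among 13651 genes. In Colo205 it was 0.45, or 1.36-fold, exceeded by 787 genes.

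The other probe sets of DHRS9 gave the same direction in both lines, with wider differences. 223952_x_at was read at 6.47 and 12.87 in HT29 and at 5.11 and 6.31 in Colo205, differences of 6.40 and 1.20. 224009_x_at was read at 6.05 and 12.62 in HT29 and at 4.66 and 6.17 in Colo205, differences of 6.57 and 1.51. Both are therefore past 2-fold in Colo205 where the representing probe set is not. Both start from a parental Colo205 reading below 5.73, so the size in that line is not settled. The ending x marks probe sets with probes that can read other transcripts, and the ending s marks those that can read several transcripts of similar sequence.

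The genes around DHRS9 on chromosome 2 did not share its difference. Its 10 nearest measured neighbours, 5 on each side, had a median difference of -0.06 in HT29, between -0.41 and 0.67, and 0 of the 10 were past 2-fold in that line. In Colo205 they ranged from -0.42 to 0.88.

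RDH10, the membrane-bound enzyme that oxidises retinol in most tissues, was read higher in each derivative than in its parent. Probe set 226021_at was read at 10.60 in parental HT29, 11.20 in resistant HT29, 11.92 in parental Colo205 and 12.57 in resistant Colo205. Both Colo205 arrays stood above both HT29 arrays, and within each line the derivative stood above its parent, by 0.60 in HT29 and 0.65 in Colo205. The other 2 probe sets past the filter gave 0.49 and 0.52 in HT29 and 0.75 and 0.49 in Colo205. All 6 differences fall short of 2-fold. Probe sets of one array read the same RNA, so their likeness is no replicate error. The fourth probe set, 1552379_at, lay between 2.90 and 3.01 on every array. The 10 nearest measured neighbours of RDH10 on its chromosome had a median of -0.04 in HT29, between -3.05 and 0.34 with 1 past 2-fold, and 0.03 in Colo205, with 0 past 2-fold.

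DHRS3 encodes a retinaldehyde reductase that returns retinaldehyde to retinol and is itself induced by retinoic acid. Its 1 probe set, 202481_at, was read at 8.78 and 8.80 in parental and resistant HT29 and at 9.22 and 9.56 in parental and resistant Colo205. The HT29 arrays differed by 0.03 and the Colo205 arrays by 0.35.

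RDH11, another reductase of retinaldehyde, was lower in resistant HT29 by less than 2-fold. Probe set 217776_at was read at 11.43 and 10.77 in parental and resistant HT29 and at 10.99 and 10.81 in Colo205. Parental HT29 was the highest of the 4 arrays, and the other 3 lay close together. The differences were -0.67 in HT29 and -0.18 in Colo205. A further probe set at a high level, 217775_s_at, gave -0.57 and -0.21, and a dim one, 232359_at, gave -0.16 and 0.11.

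The retinaldehyde dehydrogenases of HT29 differed in opposite directions. ALDH1A3 makes retinoic acid and is known as a marker of aldehyde dehydrogenase activity in several carcinomas. Probe set 203180_at was read at 9.39 in parental HT29, 12.12 in resistant HT29, 5.64 in parental Colo205 and 5.12 in resistant Colo205. Resistant HT29 was the highest array, and both Colo205 readings lay below the filter.

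The ALDH1A3 difference was 2.73 in HT29, or 6.65-fold, at rank 39 from the top of 13651 genes. In Colo205 it was -0.52, between a pair of readings not shown to lie above background. The second probe set, 1558649_at, lay between 4.15 and 4.61 on all arrays and so gives no check of the first. The 10 nearest measured neighbours of ALDH1A3 on chromosome 15 had a median of 0.14 in HT29, with 0 past 2-fold.

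ALDH1A1, the retinaldehyde dehydrogenase best known as a stem cell marker in colon and other epithelia, was lower in resistant HT29. Its 1 probe set, 212224_at, was read at 12.49 in parental HT29, 10.76 in resistant HT29, 12.58 in parental Colo205 and 12.72 in resistant Colo205. The parental lines were nearly equal, and resistant HT29 was the 1 array that stood apart. The difference of -1.74 in HT29 was 3.33-fold and ranked 53 from the bottom of 13651 genes. In Colo205 it was 0.14. Of the 10 neighbours of ALDH1A1 on chromosome 9, 1 was past 2-fold in HT29, and their median was 0.00.

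**Figure D2:**
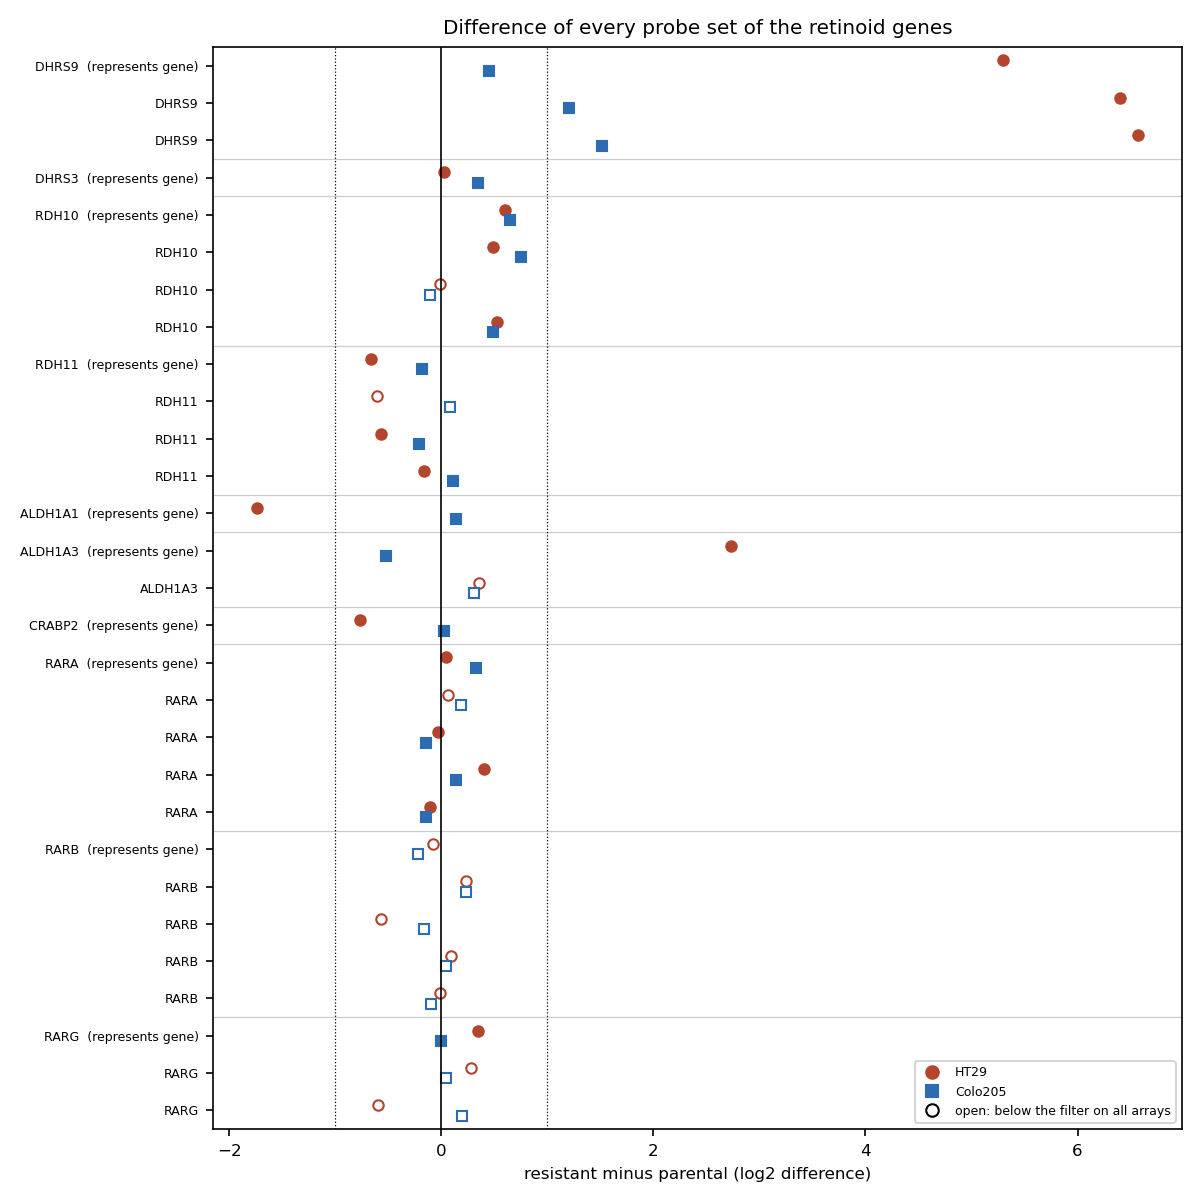
Resistant minus parental log2 difference (horizontal axis) of all 29 probe sets of the 10 retinoid genes, with red circles for HT29 and blue squares for Colo205. Open symbols are probe sets below 5.73 on all arrays, and dotted lines mark 2-fold. In HT29 the 3 probe sets of DHRS9 lie between 5.30 and 6.57, and 203180_at of ALDH1A3 and 212224_at of ALDH1A1 also pass 2-fold. In Colo205 223952_x_at and 224009_x_at of DHRS9 pass it. Probe sets of one gene are repeated readings of that gene.

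CRABP2, which hands retinoic acid to its receptors, separated the lines more than the derivatives. Probe set 202575_at was read at 9.80 and 9.03 in parental and resistant HT29 and at 6.90 and 6.92 in parental and resistant Colo205. Both HT29 arrays stood above both Colo205 arrays. Resistant HT29 was lower than its parent by 0.77, and the Colo205 arrays differed by 0.02.

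The receptors showed small differences throughout. RARA, the most widely expressed of the 3, was read by 203750_s_at at 6.93 and 6.98 in parental and resistant HT29 and at 6.78 and 7.10 in Colo205, which are differences of 0.05 and 0.32. Its other 3 probe sets past the filter lay between -0.11 and 0.40 in HT29 and between -0.15 and 0.14 in Colo205, so they did not share a direction.

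RARG, the receptor best known from skin, was read by 204189_at at 6.52 and 6.87 in HT29 and at 6.51 and 6.50 in Colo205. These are differences of 0.35 and -0.01. The resistant HT29 array was slightly above the other 3, which lay within 0.02 of one another. Its other 2 probe sets lay between 4.26 and 5.32, below the filter.

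RARB, whose promoter repeat is printed above and which is often silenced in carcinomas, lay below the filter on all arrays with all 5 probe sets. The brightest of them, 208530_s_at, was read at 5.51, 5.42, 5.32 and 5.09 in parental HT29, resistant HT29, parental Colo205 and resistant Colo205. The others lay between 3.71 and 5.17. CYP26A1, the other gene whose repeat is printed above and the main enzyme that clears retinoic acid, was read at 4.93, 5.02, 5.17 and 5.04 in the same order, also below the filter. No reading of these readouts above the filter was therefore found in either derivative. A change below the filter could not be told from background, and the readings do not show that these readouts are absent.

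**Figure D3:**
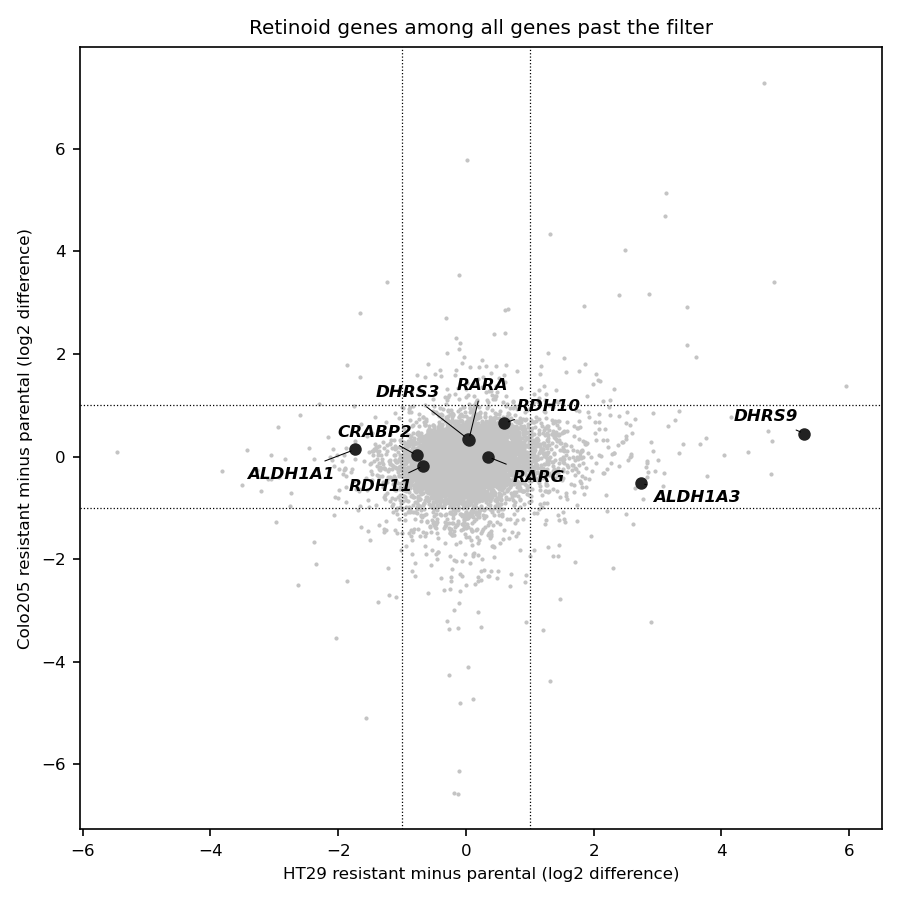
Resistant minus parental log2 difference in HT29 (horizontal axis) against that in Colo205 (vertical axis), with the 9 retinoid genes past the filter in black and all 13651 genes in grey. Dotted lines mark 2-fold. DHRS9 (5.30 and 0.45), ALDH1A3 (2.73 and -0.52) and ALDH1A1 (-1.74 and 0.14) lie outside the dotted lines along the HT29 axis, and none of the 9 lies outside them along the Colo205 axis.

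The lines differed in these genes before resistance as well. Between the parents, 3 of the 9 members were 2-fold or more different, where 18.7% of all genes were. ALDH1A3 was higher in HT29 by 3.74 and CRABP2 by 2.90, while RDH10 was lower in HT29, at -1.32. Between the derivatives 5 of the 9 were, where 19.6% of all genes were. ALDH1A3 was then higher in HT29 by 7.0, DHRS9 by 5.68 and CRABP2 by 2.11, while ALDH1A1 was lower, at -1.96, and RDH10 too, at -1.37. Both Colo205 readings of ALDH1A3 lie below the filter, so its differences between the lines are not exact. The parents had differed by 0.83 in DHRS9 and by 0.09 in ALDH1A1. With 1 array each, none of these differences has a test, and the difference between the lines' responses was not tested either.

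The rest of the pathway was taken from 4 lists of 65 further genes, of which 53 were measured and 36 passed the filter. In HT29 2 of the 36 were 2-fold or more higher and 2 lower, beside 3.42% and 1.72% of all genes. In Colo205 2 were higher and 1 lower, beside 0.908% and 2.51%. The median difference of the 36 was -0.05 in HT29 and 0.08 in Colo205. By limma over both lines, 0 of the 36 passed an adjusted p of 0.05. An unadjusted p under 0.05 was found for 5, of which 2 were higher and 3 lower, beside 6.8% of all genes. Since the lists were chosen with these data known, nothing is read from these counts.

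Among 11 other retinoid enzymes past the filter, the median was -0.03 in HT29 and 0.35 in Colo205. ALDH8A1, which oxidises the 9-cis form of retinaldehyde, was read at 3.57 and 3.77 in HT29, below the filter, and at 6.70 and 8.45 in parental and resistant Colo205, a difference of 1.75. AKR1B10, an aldo-keto reductase that can turn retinaldehyde into retinol, was read at 12.97 and 12.66 in HT29 and at 8.84 and 9.87 in Colo205, differences of -0.31 and 1.03. It has close relatives, so its probe set can read more than that gene.

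DHRS7, a relative of the retinol dehydrogenases, was read at 8.71 and 9.72 in HT29 and at 9.61 and 8.74 in Colo205. It was thus higher by 1.01 in the HT29 derivative and lower by 0.87 in the Colo205 derivative. RDH13 had the lowest mean of the list, with -0.33 and -0.14. Its 3 probe sets past the filter gave -0.33 to 0.02 in HT29 and -0.71 to 0.07 in Colo205. LRAT, which stores retinol as esters, lay at 3.47 to 3.60 on all arrays.

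Of the 7 uptake and binding proteins past the filter, RBP4 was the 1 past 2-fold. RBP4 is the carrier of retinol in blood. It was read at 7.11 and 9.20 in parental and resistant HT29 and at 5.64 and 6.31 in Colo205, differences of 2.09 and 0.67, with the lowest Colo205 reading below the filter. Its limma mean difference was 1.38 with a standard error of 0.41 and an adjusted p of 0.706, so it did not pass. STRA6, the membrane receptor for that carrier and a target of retinoic acid, had the lowest mean, with -0.04 in HT29 and -0.93 in Colo205.

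Among 7 partners and coregulators past the filter, NR2F1 stood out. NR2F1 encodes COUP-TF1, an orphan receptor known to bind direct repeats that retinoid receptors also use. It was read at 8.91 and 6.29 in parental and resistant HT29 and at 8.98 and 6.47 in parental and resistant Colo205. Both derivatives stood below both parents, with differences of -2.62 and -2.50. The limma mean difference was -2.56 with a standard error of 0.15, an unadjusted p of 0.000165 and an adjusted p of 0.706, so it did not pass over all genes. The difference rests on 1 probe set. With 1 residual degree of freedom, limma drew that standard error largely from the spread of all genes. NR2F1 was listed with these data known, so the unadjusted p is a description. PPARD had the highest mean of this list, with 0.86 and 0.17. The partners RXRA and RXRB were at -0.13 and -0.43, and at -0.56 and -0.39. Other probe sets past the filter did not all share these directions. In Colo205 those of RXRA gave -0.43 to 0.39 and those of PPARD -0.29 to 0.22. Those of RXRB gave -0.56 to 0.03 in HT29 and -0.39 to 0.08 in Colo205.

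Of 14 genes known to respond to retinoic acid that passed the filter, 6 were above 0 in HT29 and 6 in Colo205, beside 6616 and 6484 of all 13651 genes, and their median was -0.05 and -0.07. MEIS2, a homeobox gene, was the 1 past 2-fold, with 10.56 and 9.19 in HT29 and 10.73 and 10.60 in Colo205. CDX1, an intestinal homeobox gene, had the highest mean, with 0.40 and 0.91. MEIS2 had the lowest mean, at -1.37 and -0.13, and PLAAT4, also named RARRES3, was at -0.81 and -0.56.

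**Figure D4:**
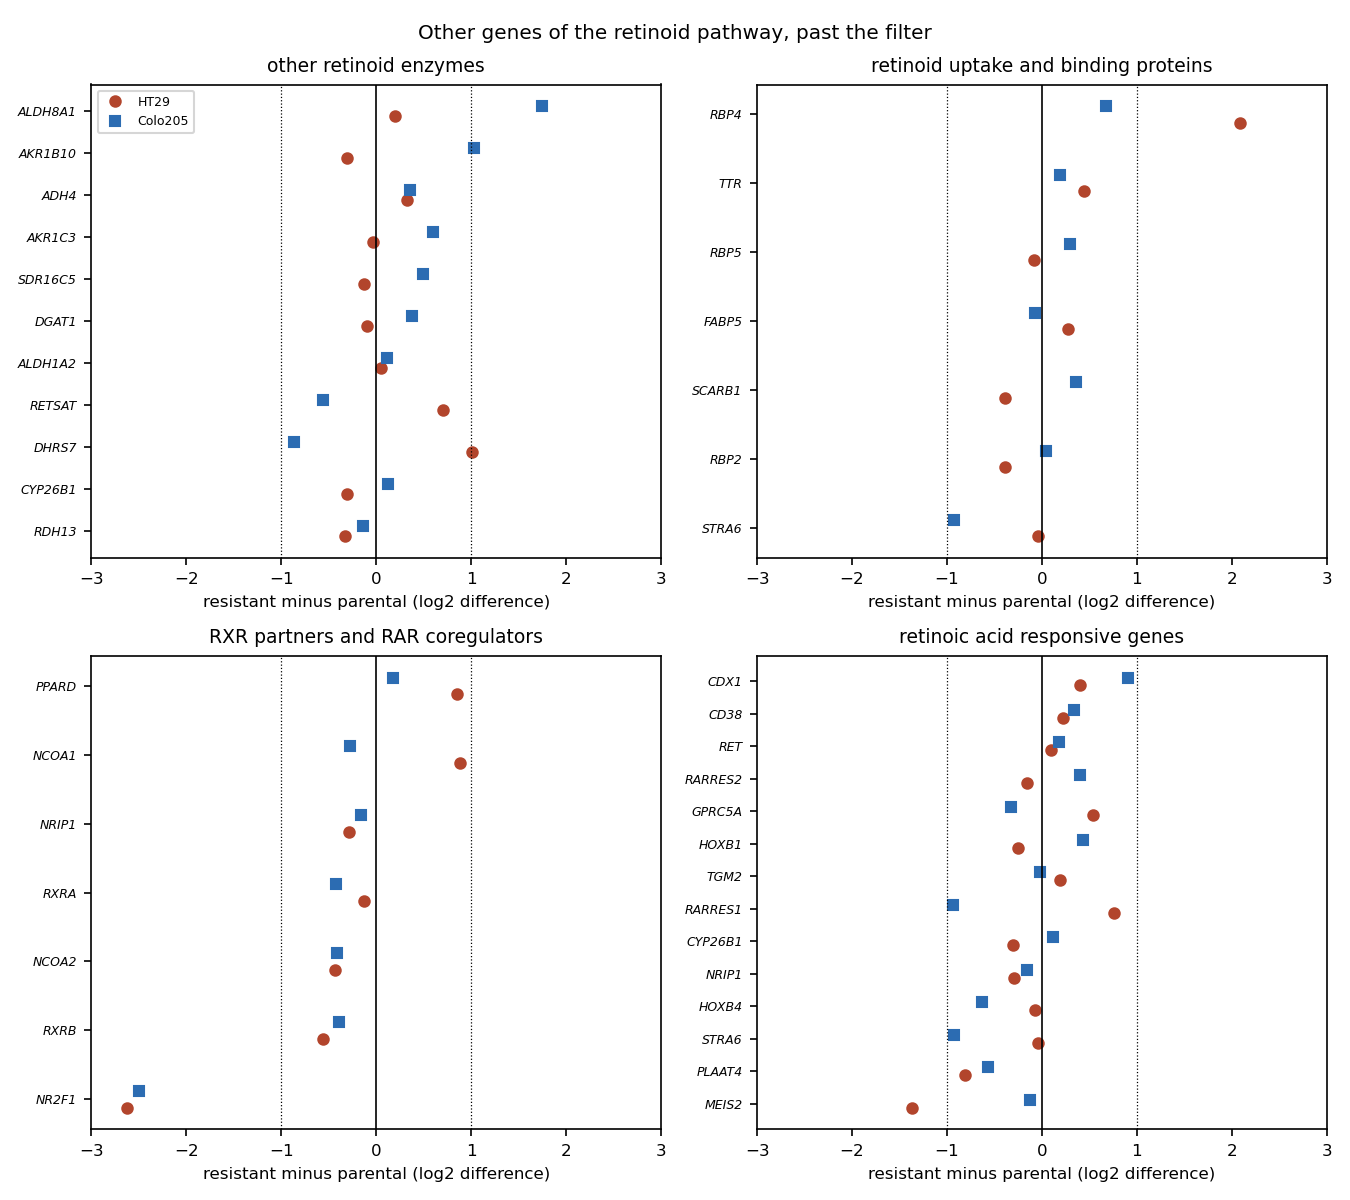
Resistant minus parental log2 difference (horizontal axis) of the other pathway genes past the filter in 4 lists, ordered by the mean of both lines, with red circles for HT29 and blue squares for Colo205. Dotted lines mark 2-fold. NR2F1 lies beyond 2-fold on the lower side in both lines, at -2.62 and -2.50, and RBP4 on the higher side in HT29, at 2.09.

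The genes whose 4 readings most resembled those of ALDH1A3 and DHRS9, the members with the widest ranges by their representing probe sets, 7.0 and 6.13, were found by the Euclidean distance between centred log2 values over the 4 arrays. The low end of ALDH1A3 lies below the filter, so its range and its place before DHRS9 are not exact. Nearest to ALDH1A3 were PRKACB, a catalytic subunit of protein kinase A, at a distance of 0.23, then IL1RN, SCEL, EMP1 and EPB41L2, at 0.79 to 1.12. PRKACB was read at 8.59, 11.40, 4.71 and 4.50 in parental HT29, resistant HT29, parental Colo205 and resistant Colo205. Both Colo205 readings of PRKACB, IL1RN and SCEL lay below the filter, as did EPB41L2 in resistant Colo205. Nearest to DHRS9 were the mucin gene MUC17 at 0.87, then IGFL2, PHLDB2, AHNAK2 and the collagenase gene MMP1, at 1.07 to 1.66. MUC17, PHLDB2 and MMP1 lay below the filter on every array but resistant HT29. IGFL2 lay below it on both Colo205 arrays, and AHNAK2 on both parental arrays. Much of the likeness is thus between readings not shown to lie above background. With 4 arrays such a likeness is a description.

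**Figure D5:**
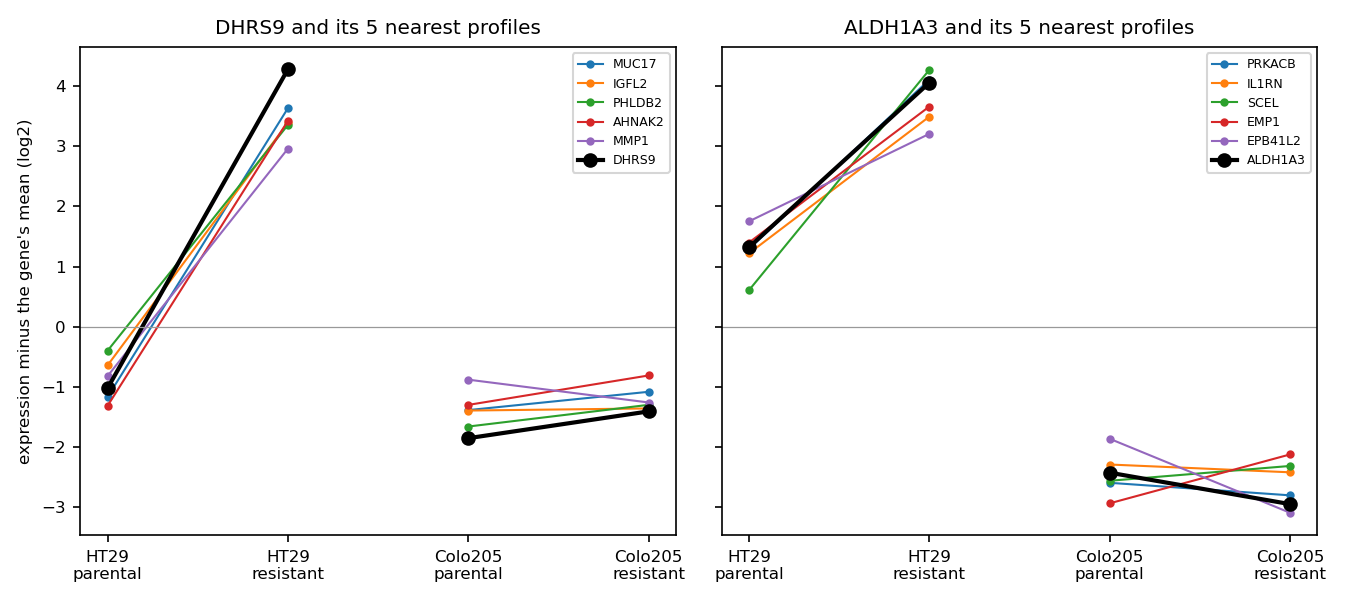
Log2 expression minus each gene's own mean (vertical axis) on the 4 arrays (horizontal axis) for DHRS9 and ALDH1A3 in black and the 5 genes with the nearest profile to each in colour. Lines join the parental and resistant array of a line. The genes near DHRS9 are high in resistant HT29 alone, and those near ALDH1A3 are high on both HT29 arrays.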

How the data were processed

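The authors deposited log2 expression values for 54675 probe sets on 4 Affymetrix arrays. Their range, 2.51 to 14.88, identified the scale. MAS5 and RMA appear in the submitters' processing notes with no role given, and the sources used here do not give the background correction. Precision is limited by the number of arrays.

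Gene names came from the platform annotation. Only the 41091 probe sets that name 1 gene were kept. The RefSeq table of GRCh38.p14 held the identifiers of 41037 and changed 0 symbols. It also gave the gene order and the promoter windows.

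For the comparison over both lines limma 3.58.1 was run in R 4.3.3. The cell line, which per the labels pairs a derivative with its parent, entered as a block. The fit kept 1 residual degree of freedom. Benjamini-Hochberg adjustment ran over all genes, and the procedure was tested on simulated data. That simulation gave all genes equal noise and gave changed genes the same change in both lines. It therefore does not measure the power in these data. The labels do not say whether cultures were independent, so p-values measure only the spread between these samples.

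The members, gene lists and tests were chosen with earlier results of these data known. The text names all 10 members, genes of the 4 pathway lists 2-fold or more different in either line, the highest and lowest mean of each of these lists, and the 5 nearest profiles of 2 members. RDH11, RDH10 and the other members are given with all probe sets past the filter. LRAT, CYP26A1, PLAAT4, RXRA and RXRB, and the markers EPCAM, KRT18, KRT20, CDX2, LUM, LYZ, CD14, PECAM1, VWF, PTPRC, CD3E, CDH5 and KDR, were named after their values were seen. Alternatives were the median over probe sets, no probe sets ending in _x_at or _s_at, no filter, median centring, quantile normalization, no block and each line alone.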

Additional observations from a re-analysis of the deposited data

Results flagged for a closer look

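In 7 genes of the pathway the derivatives differed from their parents in opposite directions in the 2 lines, by more than the scatter between probe sets in each. They are 7 of the 45 members and pathway genes past the filter, or 15.6%, beside 743 of all 13651 genes, or 5.44%. That scatter leaves out differences between arrays and between cultures, and the genes were chosen with these data known. Nothing is therefore read from the shares. With 1 array on each side, this contrast of the lines could not be tested. ALDH1A3 was the 1 member, with 2.73 in HT29 and -0.52 in Colo205, which are 3.26 apart, and its Colo205 readings lie below the filter. DHRS7 was at 1.01 and -0.87, which are 1.88 apart. RARRES1, a gene induced by retinoic acid, was at 0.76 and -0.94, which are 1.70 apart. RETSAT, the retinol saturase, was at 0.71 and -0.56, which are 1.27 apart. GPRC5A, an orphan receptor induced by retinoic acid, was at 0.54 and -0.33, which are 0.86 apart, while over its 3 probe sets above the filter HT29 gave -0.03 to 0.95 and Colo205 gave -0.33 to 0.08. In the other direction, AKR1B10 was at -0.31 and 1.03, with HT29 minus Colo205 at -1.34, and SCARB1, a lipoprotein receptor, was at -0.38 and 0.35, with HT29 minus Colo205 at -0.74. The 3 of SCARB1 gave -0.42 to 0.06 in HT29 and -0.06 to 0.35 in Colo205, so for it and for GPRC5A the opposite directions rest on the representing probe set. No cause of these differences was tested.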

How the results depend on the processing

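Of 86 member differences recomputed under the alternatives, 82 moved by less than the SD between probe sets and 4 by more. Those 4 were DHRS9 and ALDH1A3 in both lines, with the median over probe sets. Of the 86, 4 changed sign and 1 changed its side of 2-fold. Many of the 86 could not move by that much. Leaving out the filter changes no difference, and a single probe set is its own median. Median centring shifts all genes of a line by the same small amount. The members left without _x_at and _s_at probe sets kept their representing ones. The count of 82 is therefore no sign of robustness. The sign changes were in DHRS3 and RARA in HT29 and in CRABP2 and RARG in Colo205, all with differences under 0.05 in size as reported. With the median over probe sets, the DHRS9 differences were 6.28 in HT29 against 1.20 in Colo205, those of ALDH1A3 1.55 and -0.11, since its second probe set is dim; the members past 2-fold in Colo205 then numbered 1 in place of 0. Without probe sets ending in _x_at or _s_at, DHRS9 had none left and RARA none past the filter. The members past 2-fold in HT29 then numbered 2 of 7 in place of 3 of 9. Of the other pathway genes, 1 was past 2-fold in HT29 in place of 4, with 24 genes left in place of 36. In Colo205 their count stayed at 3, with 1 higher and 2 lower in place of 2 higher and 1 lower. With median centring these genes numbered 3 in place of 4 in HT29, where DHRS7 went from 1.01 to 0.98, and 2 in place of 3 in Colo205, where AKR1B10 went from 1.03 to 0.99. With the median over probe sets they numbered 3 in HT29. The mean ALDH1A3 difference of 1.11 was -0.52 in Colo205 alone and 2.73 in HT29 alone. With limma, 0 genes passed under each alternative, and with no replicate block 0 passed as well. Leaving out a line leaves no residual degree of freedom, so it gives a value without a test. Signal over background limits RARB, CYP26A1, and ALDH1A3 in Colo205.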
